A study of Mus musculus with 6 samples.

Results

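The 8 genes described here carry the signal of interleukin-2 and interleukin-7 in T cells and the feedback on it. They are Il2ra, Il2rb, Il2rg, Il7r, Cish, Socs1, Socs3 and Pim1. All 8 were found by symbol among the 15601 genes of the deposited count table. Interleukin-2 binds a receptor made of Il2ra (CD25, which raises affinity), Il2rb (CD122) and Il2rg (the common gamma chain). Interleukin-7 binds Il7r (CD127) paired with the same gamma chain. Both receptors act through the kinases Jak1 and Jak3 and the factor STAT5, whose targets include Cish and Pim1. Cish, Socs1 and Socs3 encode proteins that bind receptors or kinases and damp the signal, and Pim1 encodes a serine/threonine kinase that favours growth and survival.

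The cells were CD8 T cells from tumours of MB49, a mouse urothelial carcinoma cell line, grown under the skin of wild-type C57BL/6 mice. Hosts were inoculated with 500000 cells at an age of 6 weeks (6 to 8 weeks in the age label), and tumours were collected on day 10. Live CD3+ CD8+ CD4- cells were sorted and sequenced with a 10x Genomics 3′ kit. There were 3 female and 3 male libraries, with the same host genotype and the same tumour line and no drug or other treatment in the labels. The labels call them biological replicates, and p-values between the sexes measure the spread between these libraries.

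The 26698 cells fell into 11 deposited clusters, numbered 0 to 10. Libraries 2, 5 and 6 were female, held 2121 to 4942 cells and had medians of 9043 to 10115 unique molecular identifiers (UMIs) a cell. Libraries 1, 3 and 4 were male, held 3282 to 7156 cells and had medians of 6398 to 9210 UMIs. A barcode shared by several libraries was seen 84 times and touched 169 cells. By their marker genes, clusters 3 and 5 were proliferating-like, 7 was naive or central memory-like, 9 interferon-stimulated-like and 2 innate-like, with Klra7, Klrb1c, Fcer1g and Tyrobp among its leading genes. Klre1, Xcl1 and Zbtb16 of the natural killer and innate-like list had their highest means elsewhere, in clusters 8, 4 and 10. Cluster 2 also held naive or central memory markers near the level of cluster 7. They summed to 1511 to 1743 CPM in its female and 1625 to 1880 in its male libraries. In cluster 7 they summed to 1787 to 1860 and 1727 to 1874 CPM. Cluster 4 was led by Il2, Il3, Ccl3, Ccl4 and Ifng, cluster 8 by Gzmc, Gzmd, Gzme and Gzmf, cluster 1 by Gzmm, Cxcr3 and Ccl5, and cluster 0 by Cnih2 and Tg. These 4 are called by number. Clusters 6 and 10 had medians of 1742 and 1461 UMIs and median mitochondrial shares of 30.03% and 20.3%, and are called the low-UMI clusters. Proliferating markers summed to means of 1079 CPM in the female and 1136 in the male libraries of cluster 6, against 887 and 853 in cluster 5. Cluster 6 also had the highest mean sums of terminally exhausted markers, at 4132 and 3380 CPM. The sorted identity held in the sums over cells: of 5 CD8 T cell markers in the table none was at 0, and 139 cells had a UMI of Cd4 or Foxp3.

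Promoter sequence is shown for Cish and Socs1, since these feedback genes peaked in different clusters, Cish in cytokine-led cluster 4 and Socs1 in interferon-stimulated-like cluster 9. The windows come from RefSeq on GRCm38.p6 (mm10), each 250 bases before to 50 after a start site, and 7 of the 8 genes had at least 1. The letters TTCNNNGAA, which read the same on both strands and are the core that STAT factors are known to bind, were in 8.30% of 32851 windows. The letters AANNGAAA, searched on both strands and the core that interferon regulatory factors are known to bind, were in 23.9%. The Cish stretch is chr9:107296539-107296688, plus strand, running from 120 bases before the start site to base 30 after it. The Socs1 stretch is chr16:10785537-10785686, minus strand, the 150 bases before its start site. Capitals mark the 2 TTCNNNGAA matches of Cish and the overlapping pair of AANNGAAA matches of Socs1.
Cish: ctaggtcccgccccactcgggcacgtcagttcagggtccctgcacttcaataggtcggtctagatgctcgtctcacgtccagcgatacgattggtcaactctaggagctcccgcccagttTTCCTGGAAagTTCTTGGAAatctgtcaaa
Socs1: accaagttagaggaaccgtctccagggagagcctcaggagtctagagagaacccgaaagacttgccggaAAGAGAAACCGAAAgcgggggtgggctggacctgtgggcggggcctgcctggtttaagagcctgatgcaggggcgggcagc
A window with at least 2 TTCNNNGAA matches, as Cish has, was found in 0.457% of windows, and one with at least 2 AANNGAAA matches, as Socs1 has, in 5.34%. Among the other members with a window, Il7r held 1 TTCNNNGAA match (TTCAGGGAA, at base -142 from the start site) and Socs3 held 1 (TTCTTAGAA, at base -154). Il2rg held 1 AANNGAAA match, at base -2, and Cish 1 on the other strand, at base 35, outside the stretch. A match is a run of letters and says nothing of binding in these cells.

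In GENCODE M21 on the same build, all 8 are protein-coding genes on 7 chromosomes. Il2ra lies at chr2:11642807-11693193 and Cish at chr9:107296026-107302784, both on the plus strand. Socs1 lies at chr16:10782240-10785536 and Socs3 at chr11:117966079-117970047, both on the minus strand. Il2rb (chr15:78479256-78495271) and Il7r (chr15:9505788-9530176) share chromosome 15, minus strand. Il2rg lies on the X chromosome, at chrX:101264378-101268255, minus strand, and Pim1 at chr17:29490753-29496112, plus strand. Counts came from 3′ tags of whole genes, so isoforms were not told apart.

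Levels by cluster are CPM, the UMIs of a gene in the sum over the cells of 1 library in 1 cluster, scaled to an equal total per sum. They are given over the 6 libraries, as a description with no test, since the clusters were made from the same counts. In such sums fewer expressing cells and less RNA per cell cannot be told apart.

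Il2ra spanned the widest range of the 8, 21.3-fold between its highest and lowest cluster means. In low-UMI cluster 6 it ran from 214 to 385 CPM over the libraries, with a median of 257. In cluster 4 it ran from 165 to 245 CPM (median 196), in proliferating-like clusters 5 and 3 from 150 to 259 (median 178) and 165 to 230 (median 179), and in cluster 8 from 129 to 230 (median 166). These 4 clusters overlapped one another. Within the 6 libraries, cluster 4 was above cluster 5 in 4, cluster 5 above cluster 3 in 4 and cluster 3 above cluster 8 in 5. Low-UMI cluster 10 came next, at 54.4 to 160.1 CPM (median 106). Cluster 0 stood lower, at 64.3 to 109 CPM (median 84.0), then cluster 9 at 26.1 to 89.5 (median 56.1) and cluster 1 at 25.4 to 54.3 (median 34.9). The floor was in naive or central memory-like cluster 7, at 8.98 to 27.8 CPM (median 14.1), and innate-like cluster 2, at 6.999 to 22.9 (median 9.52). Each cluster overlapped its neighbour in this order of means, but cluster 4 did not overlap cluster 7, nor cluster 8 cluster 0. Compared within each of the 6 libraries, cluster 6 was above 4, 8 above 10, 0 above 9 and 1 above 7 in all 6.

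Il2rb, the signalling chain shared by the receptors for interleukin-2 and interleukin-15, varied far less, 2.92-fold. It ran from 380 to 899 CPM (median 548) in low-UMI cluster 6 and from 318 to 447 (median 393) in cluster 8, the cluster led by granzymes. Innate-like cluster 2 followed at 280 to 435 CPM (median 332). The lowest values were in cluster 4 (187 to 240 CPM, median 228) and cluster 7 (160 to 250 CPM, median 184). Cluster 4 was thus among the highest for Il2ra and next to last for Il2rb.

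Il2rg, the gamma chain, was the flattest member, at 2.08-fold. It was highest in low-UMI cluster 6 (269 to 339 CPM, mean 289.7) and lowest in proliferating-like cluster 3 (125 to 153 CPM, median 142). The 8 clusters 1, 9, 4, 8, 0, 2, 10 and 7 lay between means of 171 and 215 CPM, each overlapping its neighbour.

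Il7r, the interleukin-7 receptor chain that marks naive and memory T cells, followed another order. After low-UMI cluster 6 (356 to 501 CPM, median 477) came cluster 1 (275 to 461 CPM, median 330.3) and naive or central memory-like cluster 7 (262 to 450 CPM, median 313). The lowest was cluster 4, at 106 to 186 CPM (median 129), below proliferating-like clusters 3 (150 to 216 CPM, median 185) and 5 (163 to 225 CPM, median 203). Cluster 4 did not overlap cluster 1 or cluster 7. All 4 receptor chains had their highest mean in cluster 6, in the female and in the male libraries alike. So did the 5 CD8 T cell markers over the 6 libraries. Cd3e had a mean of 540 CPM there against 417 in cluster 0, the next, and Cd3g 3517 against 1962 in cluster 8. The part of the low UMI totals and high mitochondrial share of cluster 6 in this, and so in the spans of the 4 chains, was not tested.

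Cish, which encodes CIS, was highest in cluster 4, at 135 to 198 CPM (median 175). The next cluster, 8, ran from 95.6 to 127 CPM (median 114) and did not overlap it. The middle group of clusters 0, 10, 5, 9, 3 and 1 had means of 85.9 to 109 CPM. Innate-like cluster 2 (26.0 to 50.04 CPM, median 28.9) and cluster 7 (15.3 to 29.96 CPM, median 21.1) were lowest, and the means spanned 7.88-fold. The clusters lowest in Cish were also the pair lowest in Il2ra.

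Pim1 shared the top and bottom of this order over a narrower span of 2.47-fold. It ran from 527 to 695 CPM (median 632) in cluster 4, against 428 to 536 (median 481) in cluster 0, the next. At the bottom, cluster 7, at 223 to 284 CPM (median 252), lay without overlap below cluster 2, whose median was 317 and highest library 376. Over the 11 cluster means Cish and Pim1 had a Pearson r of 0.88, a description over points that come from the same 6 libraries.

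Socs1, which inhibits JAK kinases after interferon and gamma-chain cytokines, was highest in interferon-stimulated-like cluster 9, at 139 to 215 CPM (median 180.3). Cluster 7 followed at 94.2 to 161 CPM (median 138), then cluster 2 at 111 to 132 (median 124) and cluster 1 at 93.3 to 124 (mean 103). It was lowest in low-UMI cluster 6, at 18.04 to 36.8 CPM (median 25.5), where the receptor chains were highest, and the means spanned 6.97-fold. That level rests on 117 UMIs, and outside low-UMI clusters 6 and 10 the lowest mean was 55.1 CPM, in cluster 5. Clusters 8, 0, 3, 5 and 10 had means of 51.3 to 61.1 CPM with overlapping libraries.

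Socs3, which damps signalling through gp130 receptors such as that for interleukin-6, was highest in cluster 2, at 124 to 170 CPM (median 143). Cluster 7 (81.3 to 143 CPM, median 124), cluster 9 (53.3 to 158 CPM, median 103) and cluster 1 (44.9 to 119 CPM, median 71.8) followed. It was lowest in clusters 8, 5, 3 and 6, whose means were 19.7 to 22.2 CPM with overlapping libraries, 7.36-fold below the top. This order ran against that of Il2ra: r over the 11 cluster means was -0.93 for Il2ra with Socs3 and -0.74 for Il2ra with Socs1, against 0.83 for Socs1 with Socs3 and 0.70 for Il2ra with Cish. The points share libraries and differ in depth, and no p-value is given.

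**Figure D1:**
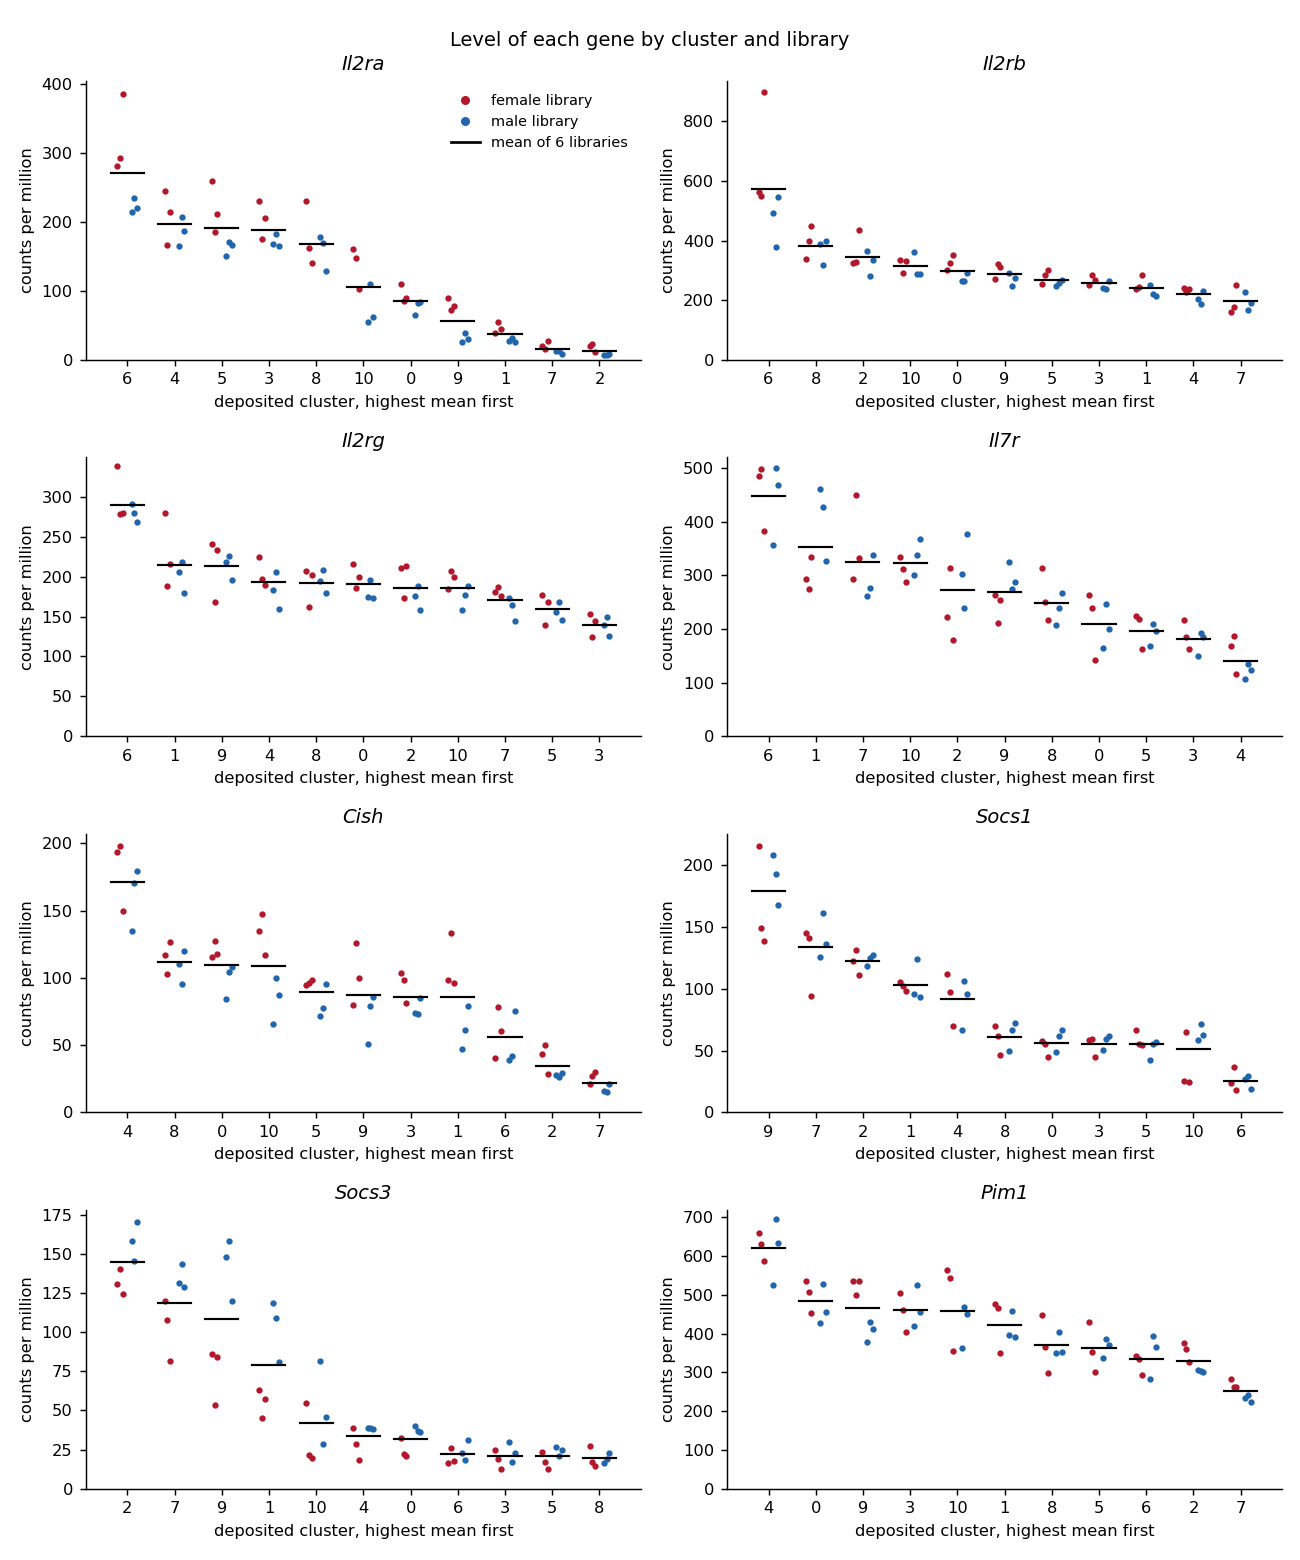
Level of each of the 8 genes in CPM (vertical axes, each starting at 0) in the 11 deposited clusters, ordered from the highest mean to the lowest; each point is 1 library, red for female and blue for male, and each bar is the mean of 6 libraries. Il2ra is high in clusters 6, 4, 5, 3 and 8 and low in 7 and 2, Socs3 is high in 2, 7, 9 and 1, and Cish in cluster 4 lies above every other mean.

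For each member, the 3 genes with the most similar profile over the 11 cluster means were taken from 5304 genes with a mean of at least 20 CPM. For Il2ra they were Hk2 (hexokinase 2, r = 0.96), Slco4a1 (0.95) and Tnfrsf4 (OX40, 0.94). For Cish they were Exoc5 (r = 0.95), Prdm1 (Blimp-1, 0.95) and Rhof (0.94), and for Pim1 Egr1 (0.94), Scyl2 (0.92) and Rock1 (0.91). For Socs1 they were Zfos1 (r = 0.96), Epb41l4aos (0.95) and the interferon-induced GTPase gene Ifi47 (0.94). For Socs3 they were Sh3bp5, 5730508B09Rik and Nfe2l2, each with r = 0.97. Itpr3, Sorl1 and Ctso were closest to Il7r (r = 0.93, 0.93 and 0.92), Fuca2, Ppt1 and Gpr108 to Il2rb (0.94, 0.90 and 0.90), and Pttg1ip, H2-K1 and Shisa5 to Il2rg (0.94, 0.93 and 0.93).

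Among the ligands, Il2 was seen mainly in cluster 4, at a mean of 316 CPM, against 67.0 CPM in cluster 6, 19.8 in cluster 3 and at most 8.64 in any other. That cluster was the lowest for Il7r and next to lowest for Il2rb, and it held the highest mean of Stat5a, at 84.1 CPM against 48.4 in cluster 6 and 39.1 or less elsewhere. Il7, which stromal cells rather than T cells are known to make, was at most 0.18 CPM in any cluster, and Il15 at most 2.03. The kinase gene Jak3 had cluster means of 26.0 (cluster 7) to 96.1 CPM (cluster 10), and Jak1 267 (cluster 6) to 560.0 (cluster 2).

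To compare single cells at equal depth, each cell was thinned at random to 2000 UMIs, which kept 91.1% of cells but only 38.6% of cluster 6 and 25.9% of cluster 10. A UMI of Il2ra was then found in 29.8% ± 2.69 of cells in cluster 4, 25.5% ± 2.14 in cluster 3, 24.3% ± 3.35 in cluster 5 and 23.7% ± 6.00 in cluster 8 (mean ± SD, n = 6 libraries). In clusters 7 and 2 it was found in 1.78% ± 0.709 and 1.54% ± 0.629. Without thinning the shares for Il2ra were 68.8% in cluster 4, 7.47% in cluster 7 and 6.01% in cluster 2. Cish had a UMI in 27.0% ± 4.26 of thinned cells in cluster 4 and 3.98% ± 1.35 in cluster 7 (unthinned, 67.0% and 11.9%). Socs3 was found in 25.2% ± 4.03 of cluster 2 and 7.03% ± 2.01 of cluster 4 (unthinned, 52.6% and 24.8%). All clusters are of sorted T cells, so none could serve as a background that should lack these genes, and the part of free RNA in the lowest shares was not tested.

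Cells with a UMI of all 3 interleukin-2 receptor chains were rare at 2000 UMIs. They made up 3.91% ± 1.23 of cluster 8, 3.53% ± 1.25 of cluster 4 and 2.85% ± 1.18 of cluster 3, and 0.181% ± 0.218 of cluster 2 and 0.181% ± 0.326 of cluster 7 (n = 6 libraries). The pair Il2rb and Il2rg alone was found in 13.5% ± 4.46 of cluster 2 and 8.45% ± 1.27 of cluster 7, and in 11.02% ± 2.64 of cluster 4. Relative to its level, the pair differed less between these clusters than the full set, whose shares also carry those of Il2ra given above. Il7r together with Il2rg ran from 6.50% ± 1.59 of cluster 4 to 12.5% ± 2.83 of cluster 7.

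Within a cluster and library, the number of thinned cells with UMIs of both of 2 members was set against the number that independence gives. Il2ra and Cish were found together in 811 cells against 617, a ratio of 1.33 ± 0.140 over the 6 libraries, each above 1.21. Cish and Socs1 shared 645 cells against 496 (ratio 1.31 ± 0.130, lowest library 1.17), and Socs1 and Socs3 shared 642 against 526 (1.21 ± 0.0583, lowest 1.11). The receptor chains of interleukin-2 showed no such excess: the ratio was 1.01 ± 0.0494 for Il2ra with Il2rb, 0.998 ± 0.104 for Il2ra with Il2rg and 1.00 ± 0.0278 for Il2rb with Il2rg. Il2ra with Socs3 was found in 191 cells against 216, a ratio of 0.885 ± 0.0797 with libraries from 0.815 to 1.04. Il2ra with Il7r gave 1.14 ± 0.0685, above 1.07 in every library. The ratios are descriptions, and cells of 1 cluster can differ in state.

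**Figure D2:**
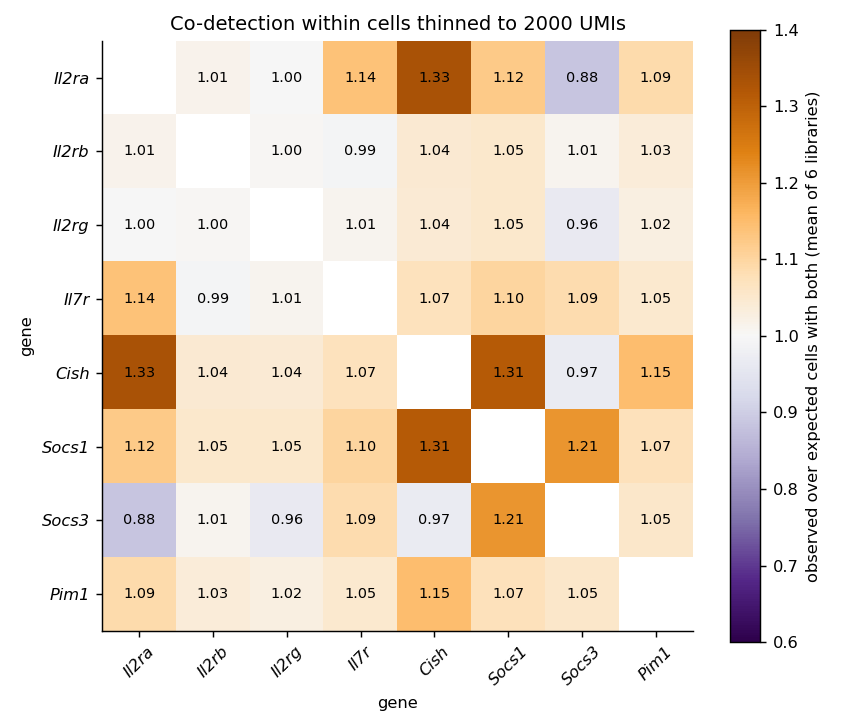
Observed over expected number of cells with a UMI of both genes, within cluster and library, in cells thinned to 2000 UMIs (mean over 6 libraries; colour scale centred on 1.0, numbers in the squares). Il2ra with Cish (1.33) and Cish with Socs1 (1.31) are the darkest squares, and Il2ra with Socs3 (0.88) is the lowest.

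The next comparison asked what distinguished cells with a UMI of Il2ra from other cells of the same cluster and library. Innate-like cluster 2 and low-UMI clusters 6 and 10 were left out of it. Thinned counts of 3169 cells with and 15581 without were summed in 40 pairs of cluster and library. edgeR's quasi-likelihood test with the pair as a block tested 3851 genes and called 345 of them, 8.96%, at an adjusted p under 0.05. The pairs come from the same 6 libraries and are not independent, so its p-values measure the spread between pairs, not between libraries. Of the 7 members tested, 4 rose with Il2ra and none fell, with a median log2 difference of 0.19 against -0.00 for all genes tested. Over all genes 4.86% rose. Cells with Il2ra had more UMIs before thinning, a median over pairs of 12155 against 10702, and more in 35 of the 40 pairs.

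Cish showed the largest difference of the members. The values per library are sums over clusters, so they also carry the cluster mix. In cells with and without Il2ra, Cish stood at 148 and 59.0 CPM in male library 1 and 156 and 85.4 in male library 3. In male library 4 it stood at 171 and 100.3. In the female libraries it stood at 170 and 109 (library 2), 157 and 119 (library 5) and 153 and 113 CPM (library 6). Cish was higher in the cells with Il2ra in the sums of each library and in 34 of 40 pairs. Within pairs the difference was 0.58 ± 0.07 on the log2 scale (SE; edgeR adjusted p = 3.4e-11). Pim1 rose by 0.28 ± 0.03 (edgeR adjusted p = 2.8e-11, higher in 35 of 40 pairs). In the sums over clusters Pim1 was higher with Il2ra in each library. It ran from 536 against 490.2 CPM in female library 5 to 648 against 449 in male library 4.

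Socs1 rose by 0.30 ± 0.08 (edgeR adjusted p = 0.00437), higher in 24 of 40 pairs. Summed over clusters, Socs1 stood at 79.7 CPM in cells with Il2ra against 93.3 without in male library 1, the reverse of the other 5 libraries, where it ran from 69.0 to 103 with and 60.0 to 86.2 without. Il7r rose by 0.19 ± 0.05 (edgeR adjusted p = 0.00493, 31 of 40 pairs). Its sums over clusters were nevertheless lower with Il2ra in all 3 male libraries (199.8 against 277 CPM, 259 against 266 and 203 against 234), and higher in the 3 female ones (286 against 237, 219 against 218 and 194 against 185). At 1000 UMIs per cell neither Socs1 nor Il7r passed, with edgeR counts of members called falling to 2. Socs1 also missed the threshold without female library 5 or male library 4. Il2rb, Il2rg and Socs3 did not pass: their log2 differences were -0.00 ± 0.05, -0.02 ± 0.05 and -0.19 ± 0.12 (edgeR adjusted p = 0.987, 0.899 and 0.356). Socs3 was higher in the cells with Il2ra in 9 of 40 pairs.

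In the wider pathway, 9 JAK and STAT genes could be tested, of which Stat5a rose by 0.31 ± 0.10 (edgeR adjusted p = 0.0383, 26 of 40 pairs) and Jak1 fell by 0.14 ± 0.04 on the log2 scale (edgeR adjusted p = 0.00825, higher in 12 of 40 pairs). Of 2 other receptor chains, 3 other brakes and 5 downstream targets tested, none passed.

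The same comparison for Il7r, again without clusters 2, 6 and 10, held 6283 cells with a UMI and 13882 without, in 48 pairs. edgeR called 221 of 4133 genes, 5.35%. These pairs also come from the same 6 libraries, and the p-values measure the spread between pairs. Of the 7 members tested, 4 rose and none fell, with a median log2 difference of 0.17 against 0.00 for all genes tested. Over all genes 3.92% rose. Depth before thinning was closer than for Il2ra, with a median of 10361 against 10004 UMIs and more UMIs in the cells with Il7r in 27 of 48 pairs.

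Socs1 rose by 0.34 ± 0.06 (edgeR adjusted p = 2.1e-06), higher in 37 of 48 pairs. Summed over clusters, Socs1 stood at 123, 105 and 119.6 CPM in the cells with Il7r of male libraries 1, 3 and 4. Without Il7r it stood at 77.8, 91.7 and 82.7. In female libraries 2, 5 and 6 it stood at 98.2, 93.7 and 80.7 CPM against 84.0, 78.6 and 64.4. Socs1 was thus higher in the sums of each library. Il2ra rose by 0.28 ± 0.06 (edgeR adjusted p = 1.1e-04, 34 of 48 pairs), although its sums over clusters were lower with Il7r in male libraries 1 (67.0 against 80.0 CPM) and 4 (81.5 against 91.9). Pim1 rose by 0.10 ± 0.03 (edgeR adjusted p = 0.0190, 32 of 48 pairs), a call lost in 6 of the alternatives run.

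Socs3 was 0.27 ± 0.08 higher on the log2 scale (edgeR adjusted p = 0.0265) but stood higher in only 22 of 48 pairs, and the call was lost without male library 1 and without male library 4. Cish, at 0.17 ± 0.06 (edgeR adjusted p = 0.0616), Il2rg, at 0.06 ± 0.04 (0.538), and Il2rb, at 0.02 ± 0.04 (0.869), did not pass. Outside the members, Socs4 rose by 0.38 ± 0.09 on the log2 scale among 5 other brakes (edgeR adjusted p = 0.00447), and Bcl2, a survival gene downstream of interleukin-7, by 0.17 ± 0.05 among 6 targets (edgeR adjusted p = 0.0193). None of 3 other receptor chains passed. At 1000 UMIs 1 member passed in place of 4, and Il2ra was not among those called. The comparisons for Il2ra and Il7r draw on the same cells, and the difference between them was not tested.

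**Figure D3:**
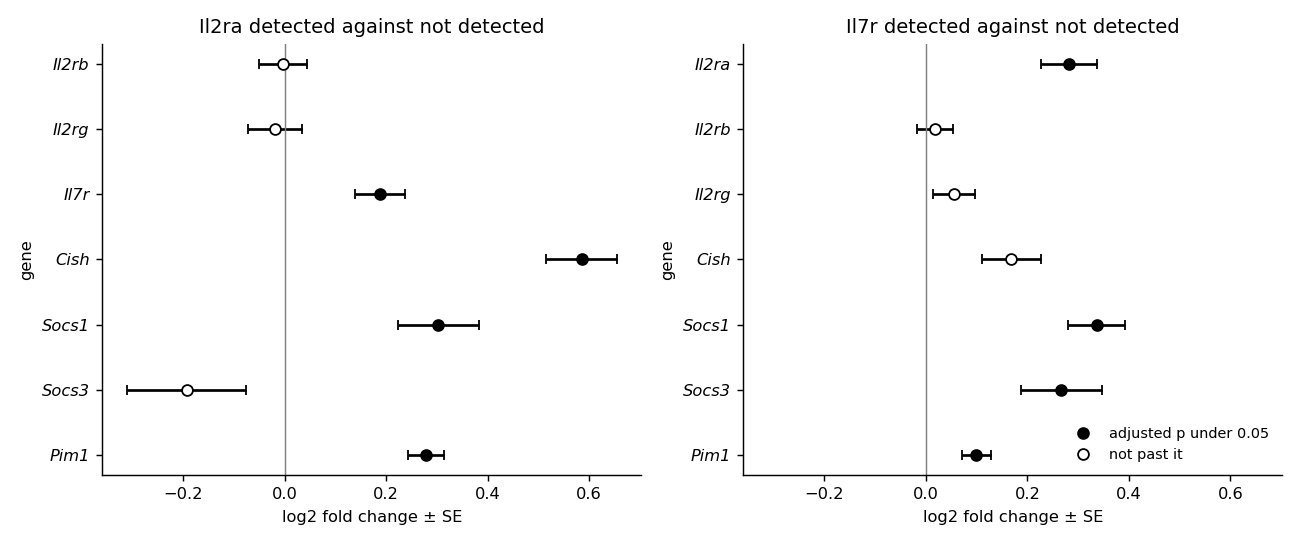
Log2 difference between cells with and without a UMI of Il2ra (left) or Il7r (right) in thinned cells, for the other 7 members (rows); points are edgeR estimates, bars are ± 1 SE, and filled points passed an adjusted p of 0.05. Cish (0.58) lies farthest right for Il2ra and Socs1 (0.34) for Il7r, while Il2rb and Il2rg lie near 0 in both.

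The sexes were compared on sums per library over all cells outside innate-like cluster 2. edgeR tested 12194 genes and called 11, 0.0902%. No member was among them, 4 of the 8 had an unadjusted p under 0.05 (8.36% of all genes did), and DESeq2 called 1, Socs3. CPM in these sums are scaled by edgeR's TMM factors.

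Il2ra stood at 199, 146 and 156 CPM in the female libraries and 110, 136 and 123 in the male libraries. The female libraries were above the male without overlap, which held in the same direction for 5.43% of genes. The log2 difference, male minus female, was -0.45 ± 0.13 (SE), with a 95% interval of -0.73 to -0.16 and an edgeR adjusted p of 0.335. At 2000 UMIs Il2ra had a UMI in 20.5% ± 0.714 of female and 14.5% ± 1.35 of male cells outside cluster 2 (n = 3 each).

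Socs3 went the other way, at 36.2, 24.3 and 22.1 CPM in the female libraries and 56.2, 47.3 and 40.9 in the male. The male libraries were above the female without overlap, as for 8.4% of genes. The log2 difference was 0.80 ± 0.20 (95% interval 0.34 to 1.27, edgeR adjusted p = 0.284), and DESeq2 gave 0.80 with an adjusted p of 0.0040. At 2000 UMIs Socs3 was found in 6.33% ± 0.793 of female and 11.3% ± 1.66 of male cells.

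Cish stood at 118, 117 and 96.1 CPM in females and 72.6, 86.1 and 100.2 in males. The highest male library lay above the lowest female, and the difference was -0.36 ± 0.13 (edgeR adjusted p = 0.465). Il2rb stood at 280.1, 306 and 306 CPM in females and 255, 255 and 271 in males, without overlap (log2 difference -0.19 ± 0.08, edgeR adjusted p = 0.564). The other members overlapped, with log2 differences of -0.07 (Il2rg), 0.02 (Il7r), 0.17 (Socs1) and -0.07 (Pim1), of which Il7r, Il2rg and Pim1 changed sign when single libraries were left out.

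Marker lists of other states differed between the sexes in the same sums. All 8 naive or central memory markers were higher in males on average, with summed levels of 283 to 418 CPM in female and 471 to 761 in male libraries. All 8 interferon-stimulated markers were higher in males too, at 89.1 to 141 and 127 to 215 CPM, and none of 5 CD4 and regulatory T cell markers was, at 25.7 to 44.2 and 17.8 to 27.2 CPM. Effector markers were lower in males without overlap, at 6977 to 10315 CPM in females and 4603 to 6322 in males, with 1 of 8 higher in males. Proliferating markers were too, at 1199 to 1307 and 1002 to 1165 CPM, with 1 of 8 higher in males. None of 8 terminally exhausted markers was higher in males, at 1118 to 1449 and 937 to 1232 CPM. Il2ra is low and Socs3 high in clusters 7 and 9, and the reverse holds in proliferating-like clusters 3 and 5. With 1 cluster mix imposed on every library, limma on log2 CPM without TMM factors gave -0.30 for Il2ra and 0.54 for Socs3 (limma adjusted p = 0.759 and 0.507). The fit differs from edgeR's in method as well as in mix, so the values do not measure the part of the cluster mix. The part of the cluster mix and of these markers in the sex differences was not tested.

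**Figure D4:**
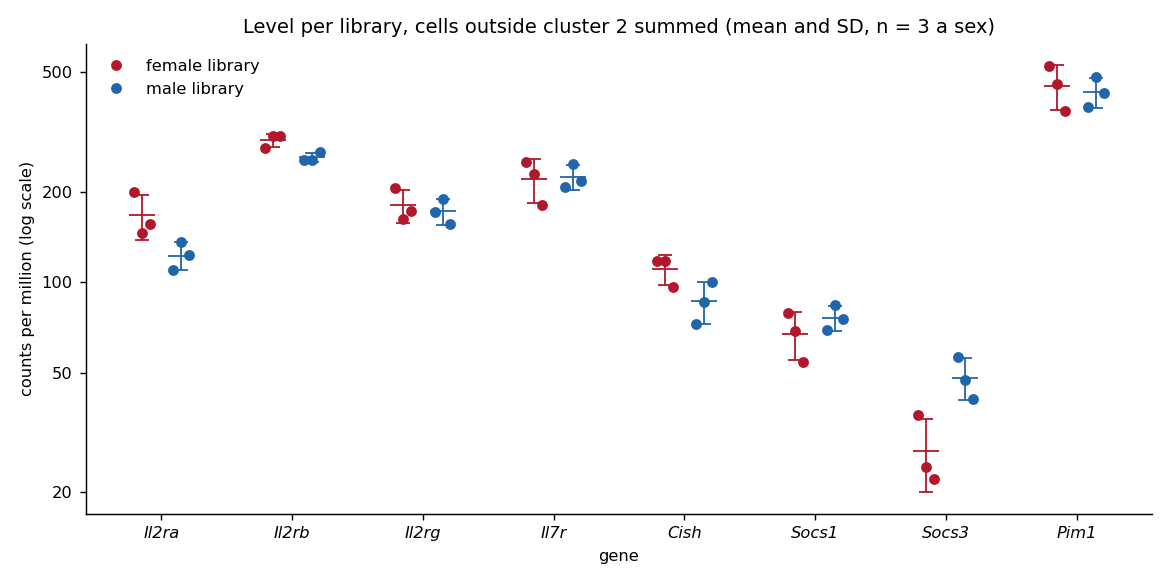
Level of each gene in CPM (log axis) in the sums over cells outside cluster 2; points are libraries, red for 3 female and blue for 3 male, with the mean and SD. Il2ra and Il2rb lie lower and Socs3 higher in every male library than in any female one, and the other 5 genes overlap.

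No gene of the other pathway lists passed between the sexes. Of 3 gamma chain cytokines tested none was called, nor of 6 other receptor chains, 10 JAK and STAT genes, 13 other brakes or 9 downstream targets. In that order, 0, 3, 2, 1 and 2 of them had an unadjusted p under 0.05. Their median log2 differences were 0.30, 0.32, 0.07, 0.03 and 0.05, against 0.00 for all genes. The ligand Il2 stood at 90.4, 30.03 and 13.0 CPM in female and 27.4, 43.6 and 53.8 in male libraries, with full overlap. Il15 was under 0.55 CPM in every library.

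Within single clusters, 7 of the 88 pairs of member and cluster passed, in clusters 1, 2 and 9, against 0.797% of all pairs of gene and cluster. In the other 8 clusters no member passed. Il2ra was lower in males in all 11 clusters, by -0.19 to -1.28 on the log2 scale, and without overlap between the sexes in 6. Cish was lower in all 11, without overlap in 5, and Socs3 higher in 10, without overlap in 4. Over all genes and clusters, male libraries lay below female ones without overlap in 5.73% and above in 6.06%. The clusters share their libraries and are not independent.

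In interferon-stimulated-like cluster 9, Il2ra stood at 90.4, 72.2 and 74.8 CPM in females and 27.2, 41.5 and 29.9 in males. Every male library lay under every female one, by -1.28 ± 0.18 (edgeR adjusted p = 5.8e-05). Socs3 stood at 87.1, 52.8 and 80.4 CPM in females and 154, 167 and 119 in males, every male library above, by 1.03 ± 0.18 (edgeR adjusted p = 0.00119). Over all genes tested in this cluster 2.29% fell and 1.12% rose in males. Il2ra rested on 256 female and 192 male UMIs. In female library 2, 28 of its 81 Il2ra UMIs were in 1 cell, and 1 of its 107 thinned cells had one (0.935%). Without that library the difference was -1.18 and still passed (adjusted p = 1.3e-04).

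Other values moved with sex in cluster 9. Library medians were 7174 to 8444 UMIs per cell in females and 4974 to 7245 in males. Naive or central memory markers summed to 508 to 1011 CPM in females and 1095 to 1568 in males, and CD4 and regulatory T cell markers to 23.3 to 44.2 and 7.20 to 13.2 CPM. Terminally exhausted markers summed to 873 to 1173 CPM in females and 378 to 591 in males, effector markers to 5190 to 7699 and 2452 to 3384, and CD8 T cell markers to 4161 to 5421 and 2944 to 3894, each without overlap. Without the cells that had a UMI of Cd4 or Foxp3, Il2ra still fell, by 1.17 on the log2 scale (edgeR adjusted p = 4.2e-04). This last setting was chosen after seeing the data. It removed only 0 to 4 cells per library, at means of 0.35 CPM for Cd4 and 3.66 for Foxp3. At such levels a CD4 or regulatory T cell can lack a UMI of either gene, so the setting cannot show their part. The part of the depth and of all these marker lists was not tested.

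In cluster 1, which holds the chemokine receptor gene Cxcr3 among its leading genes, 4 members passed, 2 lower and 2 higher in males, where 2.2% of all genes fell and 1.6% rose. Il2ra stood at 39.5, 54.0 and 43.3 CPM in females and 27.2, 32.1 and 25.2 in males (-0.75 ± 0.15, edgeR adjusted p = 0.00808). Cish stood at 100.9, 133 and 92.5 in females and 48.2, 62.8 and 78.3 in males (-0.80 ± 0.18, edgeR adjusted p = 0.0377). Both were lower in every male library. Socs3 stood at 64.5, 44.7 and 55.0 in females and 121, 112 and 79.8 in males (0.95 ± 0.17, edgeR adjusted p = 0.0111). Il7r stood at 299.6, 274 and 321 in females and 472, 440.0 and 323 in males (0.47 ± 0.13, edgeR adjusted p = 0.0466). Both were higher in every male library, Il7r by a narrow margin.

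None of these 4 calls held when female library 5 was left out (edgeR adjusted p = 0.137 for Il2ra, 0.129 for Cish, 0.0549 for Socs3 and 0.237 for Il7r). Cish was also lost without female library 2, female library 6 or male library 3, Socs3 without female library 6, and Il7r in 5 of the 6 leave-outs. Directions did not change. In cluster 1 the library medians were 6488 to 6996 UMIs per cell in females and 4320 to 6184 in males, and naive or central memory markers summed to 826 to 1145 and 1144 to 1586 CPM. Terminally exhausted markers summed to 550.3 to 956 CPM in females and 332 to 446 in males, and effector markers to 4728 to 5772 and 2930 to 3184, both without overlap. CD4 and regulatory T cell markers summed to 20.1 to 29.9 and 9.81 to 13.4 CPM. The 4 calls held without cells that had a UMI of Cd4 or Foxp3. That setting removed only 0 to 6 cells per library, at means of 0.028 CPM for Cd4 and 1.48 for Foxp3. It thus cannot show the part of CD4 or regulatory T cells. The part of depth and of all these marker lists was not tested.

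In innate-like cluster 2, where 0.28% of genes fell in males by edgeR, Il2ra stood at 21.2, 21.4 and 10.3 CPM in females and 7.65, 7.37 and 8.10 in males (-1.16 ± 0.25, edgeR adjusted p = 0.0262). These levels rest on 82 female and 118 male UMIs, and the call was lost without female library 2, female library 5, male library 1 or male library 3 and under DESeq2. In female libraries 2, 5 and 6 the 5 cells with most Il2ra held 16 of 31, 16 of 32 and 10 of 19 UMIs, against 13.6% to 39.3% of them in the male libraries. Effector markers summed to 2021 to 2122 CPM in females and 612 to 962 in males, terminally exhausted markers to 141 to 329 and 118 to 137, and natural killer and innate-like markers to 1406 to 1783 and 1171 to 1241, each without overlap. Their part in the call was not tested.

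**Figure D5:**
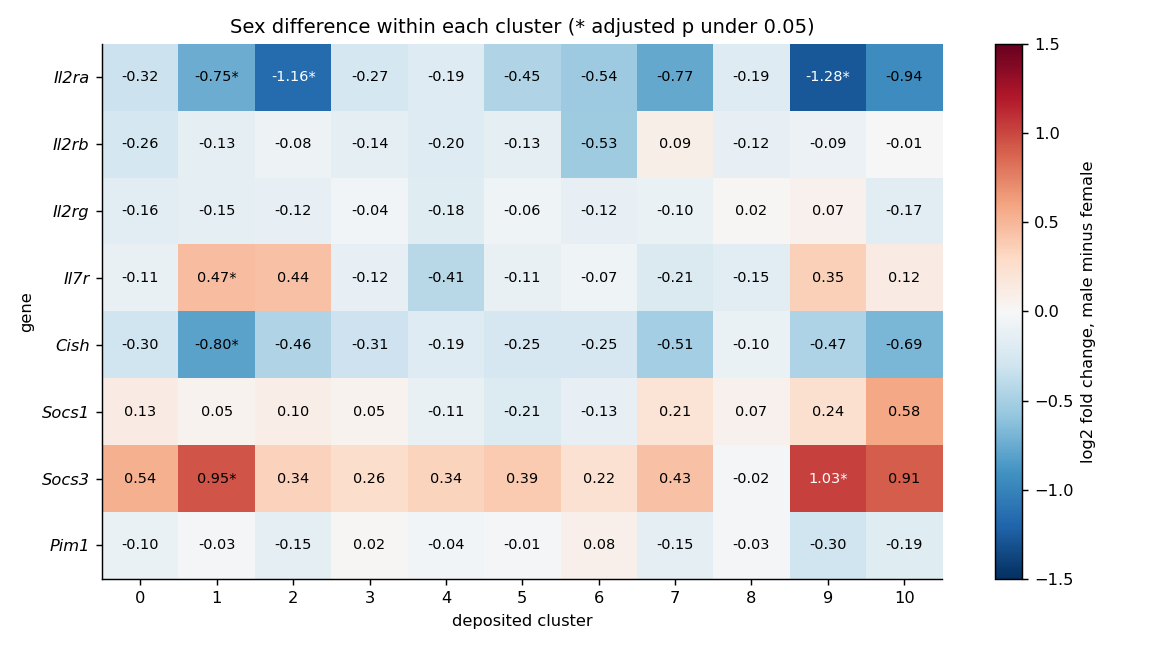
Log2 difference between male and female libraries (male minus female, edgeR) for each gene (rows) in each deposited cluster (columns); blue is lower and red higher in males, and a star marks an adjusted p under 0.05. The Il2ra and Cish rows are blue throughout, the Socs3 row is red in every column but cluster 8 (-0.02), and the 7 stars fall in clusters 1, 2 and 9.

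Whether the sex difference itself varied between clusters was tested with an interaction in edgeR, which called 170 of 10874 genes, 1.56%. Il2ra was the 1 member called (F = 4.01, adjusted p = 0.0444). Its log2 differences ran from -1.28 in cluster 9 and -1.16 in cluster 2 to -0.19 in clusters 4 and 8. Among the other clusters with a high level, it was -0.54 in cluster 6 and -0.45 in cluster 5, both without overlap. In cluster 3 it was -0.27, with overlap. The call was lost with clusters 2, 6 and 10 left out and without female library 5 or any 1 of the 3 male libraries. The adjusted p was 0.249 for Il7r, 0.250 for Cish and 0.258 for Socs3, and 0.640 or more for the other 4 members.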

How the data were processed

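Single-cell RNA-seq counts from CD8 T cells of 3 female and 3 male libraries were analysed. The deposited table holds raw UMI counts, and the deposited metadata gives sex, gene number and cluster per cell in other units and UMI totals as counts. Totals and gene numbers equalled the table in all 26698 cells. Cell Ranger, Seurat and the genome build mm10 are named per the submitters' processing notes. Other steps, with filters on cells and treatment of doublets, were not given in the sources used here, and no doublets were removed. The number in each cell name was taken as the library, and libraries could not be tied to the labels' replicate numbers.

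Counts were summed per library and cluster (93 or more cells each) and tested with edgeR 4.0.16 (quasi-likelihood, robust, TMM, default low-count filter) in R 4.3.3. P-values were Benjamini-Hochberg adjusted over all genes of a comparison, and genes were called under 0.05. Fold changes are edgeR's log2 values. Detection contrasts used cells outside clusters 2, 6 and 10, thinned to 2000 UMIs (Python 3.11.15, numpy 2.4.6). Pairs of cluster and library with at least 10 cells per side were used, with the pair as a block. The gene that defined a contrast was left out. Alternatives used DESeq2 1.42.0, limma 3.58.1, other filters, cells, depths and left-out libraries. The fits were tested on simulated counts. Members and lists were chosen with earlier results of these data known. Genes named are the 8 members, 3 ligands, pathway-list genes called by sex, up to 3 called genes per list in the detection contrasts, and the 3 genes most like each member. A gene that this rule would name is not reported here. Clusters' leading genes and the pathway genes Stat5a, Jak1 and Jak3, given by cluster, were added after their values were seen.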

Additional observations from a re-analysis of the deposited data

Results flagged for a closer look

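The sex difference of Il2ra varied between the 11 clusters by the edgeR interaction test, with an adjusted p of 0.0444. In log2 terms, male minus female, it was -1.28 in cluster 9, -1.16 in cluster 2, -0.94 in cluster 10, -0.77 in cluster 7 and -0.75 in cluster 1. It was -0.54 in cluster 6, -0.45 in cluster 5, -0.32 in cluster 0, -0.27 in cluster 3 and -0.19 in clusters 4 and 8. The call was lost in 5 of the 7 alternatives run for it, among them the one without low-UMI clusters 6 and 10 and innate-like cluster 2. With 3 libraries a sex, no group was large enough to look for single outlying libraries.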

How the results depend on the processing

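No paired analysis was possible because the files tie no library to a replicate number of the labels. Over all CD8 T cells, DESeq2 called 1 member and 127 genes in place of 0 and 11. The sign of unpassed differences turned for Il7r with 1 cluster mix in every library (-0.037, by limma without TMM factors). It also turned with single libraries left out for Il2rg (-0.15 to 0.032), Il7r (-0.10 to 0.12) and Pim1 (-0.19 to 0.048). Member and cluster pairs called numbered 2 to 7 with 1 library left out, against 7, and genes called over the clusters 232 to 1262, against 751, or 1434 with no filter. Il2ra and Socs3 in cluster 9 passed under all 10 alternatives. The interaction called 0 members and 291 genes without clusters 2, 6 and 10, and 0 to 1 members and 34 to 262 genes with 1 library left out. For cells with Il2ra, 2 members and 114 genes were called at 1000 UMIs and 1016 genes at 4000. At 4000 UMIs Il2rb and Il2rg turned to 0.0084 and 0.081, and with 1 library left out they ran from -0.035 to 0.045 and -0.052 to 0.034. For cells with Il7r, 1 member and 69 genes were called at 1000 UMIs and 426 genes at 4000, and 2 to 5 members and 85 to 241 genes with 1 library left out. There Il2rg was -0.028 at 1000 UMIs and Il2rb -0.020 at 4000. Shares of positive cells moved beyond 1 SD in 443 of 504 settings, and co-detection ratios in 15 of 72. The cause of the other changes was not tested. Il2ra rested on 200 UMIs in cluster 2 and 448 in cluster 9, and Socs3 on 103 and 90 in low-UMI clusters 6 and 10.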
